A study of Homo sapiens with 6 samples.

Results

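The 8 genes described here, MDM2, MDM4, USP7, PPM1D, CCNG1, RPS27L, ZMAT3 and TP53INP1, encode p53's own negative regulators and some of the genes it switches on that feed back on it or act beside it. They were taken by symbol from the 16659 genes of the expression table, in which all 8 were found, and all 8 passed the filter on low values. RNA was measured in HepaRG, a human liver cancer line with progenitor properties. One group of 3 libraries came from cells labelled as a functional knockout of PXR, the pregnane X receptor, a nuclear receptor that drugs activate. The control group of 3 libraries came from wild-type cells, and neither group was drug treated. The labels do not say how the knockout was made or whether its cells are 1 clone, so loss of PXR cannot be told apart from other differences between the lines.

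p53 is a transcription factor that halts the cell cycle, starts repair or triggers cell death when DNA is damaged or growth signals are abnormal. It is held at a low level by MDM2, a ubiquitin ligase that marks it for destruction, and MDM2 is itself a p53 target, so rising p53 activity raises its own inhibitor. MDM4 is a relative of MDM2 that binds and blocks p53, USP7 removes ubiquitin from MDM2 and p53, and the phosphatase encoded by PPM1D reverses the damage-induced phosphorylation of p53 and of the kinases above it.

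MDM2 has a pair of promoters, and the later one, inside the first intron, is the one known to answer to p53. Both are shown because MDM2 had the largest difference of the 8 genes. RefSeq starts lie at 68808172 and 68808177 for the first promoter and at 68809017 and 68809024 for the later one, on the plus strand of chromosome 12. The lower position of each promoter is used here. GENCODE 29 lists 7 and 22 of its 34 MDM2 transcripts as beginning within 300 bases of the starts used. The stretches before these are given 5′ to 3′ from RefSeq (GRCh38.p14), the first being chr12:68807922-68808171 and the second chr12:68808767-68809001, which ends before any annotated exon.
MDM2 first promoter: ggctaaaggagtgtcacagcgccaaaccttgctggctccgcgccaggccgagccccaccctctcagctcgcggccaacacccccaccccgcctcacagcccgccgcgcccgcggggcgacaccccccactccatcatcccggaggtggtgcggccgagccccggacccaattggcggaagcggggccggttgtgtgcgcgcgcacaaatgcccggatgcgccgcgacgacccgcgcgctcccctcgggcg
MDM2 intronic promoter: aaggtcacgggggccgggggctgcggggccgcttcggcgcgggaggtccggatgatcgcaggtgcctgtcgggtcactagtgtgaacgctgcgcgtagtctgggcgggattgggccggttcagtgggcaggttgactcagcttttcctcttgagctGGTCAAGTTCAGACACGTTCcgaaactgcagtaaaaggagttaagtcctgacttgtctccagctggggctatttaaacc

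Capitals mark a match to a full p53 site, which was searched for as 2 consensus p53 half-sites of 10 bases side by side, with the central C and G of each kept and up to 3 mismatches in the 20 bases. The consensus reads the same on both strands. The intronic promoter held 1 such match, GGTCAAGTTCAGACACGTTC, with 2 mismatches, whose first base lies at position -94 when the first transcribed base is 0. The first promoter held none. Sequences outside these rules were left unmarked, so the count need not include every p53 site in either stretch. GC content was 74.4% in the first stretch and 60.0% in the second.

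Of the 8 genes, 7 were matched to RefSeq promoter windows, 14 windows in all, each of 250 bases before and 50 after a start. Besides MDM2, RPS27L held a full match with 3 mismatches, printed because it lies in the other of the 2 genes with one.
RPS27L match: GGCCTAGAGCAGACAAGCCC

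The RPS27L match is at chr15:63157527-63157546 on the minus strand, position -69, and its last 10 bases are an exact half-site. A full match was present in 1.12% of 35116 windows and an exact half-site in 6.63%. Counted by gene, 1.37% of all genes held a full match, against 2 of the 7 genes matched here. No match in the windows of MDM4, USP7, PPM1D, CCNG1 and ZMAT3 says only that these letters were not found there.

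Values are given as scaled CPM, that is, reads over a library size to which the authors had applied a factor. They are not divided by gene length, so they compare libraries and not genes. Estimated depth was 28154914 to 33393110 reads in knockout libraries and 11359209 to 20945994 in wild-type libraries, so every knockout library was the deeper. Fold changes are log2, knockout over wild type, from limma on log2(scaled CPM + 0.5), with the standard error (SE) and a p adjusted over all 16219 genes tested. The labels do not name separate cultures, and p-values therefore reflect spread among these libraries, which may be technical. NR1I2, the gene for PXR, had 13.1, 13.4 and 14.3 scaled CPM in knockout libraries and 8.24, 7.04 and 7.60 in wild-type libraries. It was higher in the knockout by 0.80 ± 0.084 (SE, limma adjusted p = 6.8e-07), and a value over the whole gene does not check a functional knockout. The labelled liver origin was matched by 5 hepatocyte markers with values, ALB, APOA1, TF, SERPINA1 and TTR, all higher in the knockout, whose summed level was 36608 to 37555 scaled CPM in knockout libraries and 1275 to 1335 in wild-type libraries. Of markers of other cell types with values, KRT19, SOX9, CD68, LYZ, ACTA2 and COL1A1 were higher and KRT7, DES, PDGFRB and PECAM1 lower. Summed levels were 331 to 354 scaled CPM in knockout and 118 to 121 in wild-type libraries for the 3 bile duct markers, and 62.9 to 66.0 in knockout and 32.6 to 34.2 in wild-type libraries for the 4 mesenchymal markers. They were 21.1 to 22.6 in knockout and 11.6 to 14.9 in wild-type libraries for the 2 leukocyte markers, and PECAM1 of endothelium had 0.225 to 0.587 in knockout and 1.53 to 1.64 in wild-type libraries. The mesenchymal sum joins markers of opposite direction. In it, ACTA2 averaged 55.7 in the knockout and 8.90 in wild type, and DES averaged 1.18 in the knockout and 18.5 in wild type. Other listed markers were not analysed here. The part of these cell states in the results below was not tested. In bulk RNA, fewer cells of a type and less RNA per cell cannot be told apart.

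Of the 8 genes, 6 were higher in the knockout and 2 were lower, and in all 8 the 3 knockout values lay apart from the 3 wild-type values. Such differences were common in this comparison. Of all genes tested, 79.9% passed the threshold of 0.05, 40.3% upward and 39.6% downward, and the groups did not overlap at 80.8%, with the knockout higher at 40.8% and lower at 40%. The balance of directions depends on the scaling, since 32.9% were higher and 47.5% lower with libraries scaled to equal sums. The size of the rises was less common, since 5 of the 8 genes passed with at least a 2-fold rise, against 12.6% of all genes, and 4 with at least a 4-fold rise on the log2 scale, against 4.82% of all genes. The median log2 fold change was 2.01 over the 8 genes and 0.01 over all genes. As the 8 genes were chosen with earlier results of these data known, these shares and medians describe them and are not an independent test.

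**Figure D1:**
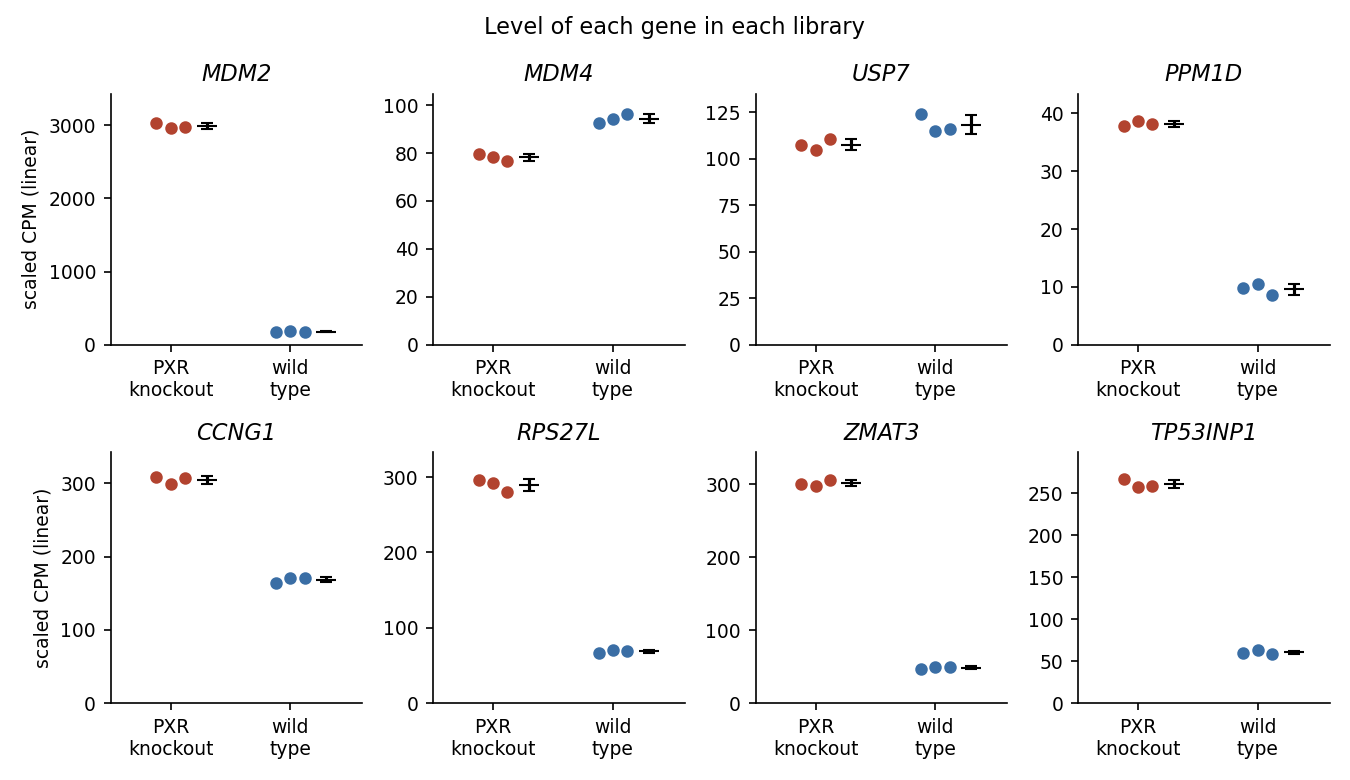
Level of each of the 8 genes in scaled CPM (vertical axis, linear, from 0) in knockout (left) and wild-type (right) libraries; points are libraries and the bar beside them is the mean ± SD (n = 3). MDM2, PPM1D, CCNG1, RPS27L, ZMAT3 and TP53INP1 are higher in every knockout library, and MDM4 and USP7 are lower.

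Among the direct regulators of p53, MDM2 rose steeply while its partner MDM4 fell slightly. MDM2 (ENSG00000135679.24, chromosome 12, 68808176 to 68850686, GRCh38) stood at 3039, 2969 and 2972 scaled CPM in knockout libraries 1 to 3, against 173, 186 and 177 in wild-type libraries 1 to 3. The groups lay far apart, and replicates within each were close. Mean levels of 2993 ± 39.2 in the knockout and 179 ± 6.51 in wild type (SD, n = 3 each) gave a ratio of 16.7 and a log2 fold change of 4.06 ± 0.029 (SE, limma adjusted p = 3.2e-19). That rise was the 169th largest of 16219. MDM2 took 0.285% to 0.295% of all signal in knockout libraries and 0.0185% to 0.0196% in wild-type libraries, a measure that does not depend on the scaling between libraries.

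MDM4 (ENSG00000198625.13, chromosome 1, 204516379 to 204558120) had 79.7, 78.2 and 76.7 scaled CPM in knockout libraries, against 92.4, 94.3 and 96.1 in wild-type libraries. All knockout values were the lower ones, by a small margin. It fell by 0.27 on the log2 scale (SE 0.032, limma adjusted p = 2.6e-06), to 0.830 of its wild-type mean. The ratio of MDM2 to MDM4 was 38.1, 37.96 and 38.8 in knockout libraries and 1.88, 1.97 and 1.85 in wild-type libraries. On the log2 scale this ratio averaged 5.25 ± 0.016 in the knockout and 0.92 ± 0.050 in wild type (SD, n = 3 each), a difference of 4.33, and an exact two-sided permutation test gave p = 0.10, the smallest that 3 against 3 libraries allow. As neither level is per length, the ratios compare libraries and do not say which transcript was the more abundant.

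USP7 (ENSG00000187555.15, chromosome 16, 8892094 to 8964514) had 107.6, 104.6 and 110.9 scaled CPM in knockout libraries, against 124.2, 114.7 and 115.96 in wild-type libraries. The highest knockout value and the lowest wild-type value were close together. Its log2 fold change was -0.13 ± 0.036 (SE, limma adjusted p = 0.0036), with a 95% interval of -0.21 to -0.057, the smallest difference of the 8 genes. Both USP7 and MDM4 lay inside the interquartile range of all genes, which ran from -0.45 to 0.49. Scaling libraries to equal sums moved the median of all genes to -0.12, and under it the changes of MDM4 and USP7 were -0.40 and -0.27, below that median.

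PPM1D (ENSG00000170836.11, chromosome 17, 60600183 to 60666280), whose phosphatase dampens the p53 response, had 37.7, 38.7 and 38.1 scaled CPM in knockout libraries, against 9.73, 10.4 and 8.55 in wild-type libraries. The knockout libraries were nearly identical and all well above the wild type. It rose by 1.95 ± 0.070 (SE, limma adjusted p = 4.9e-12), a ratio of means of 3.99. PPM1D was the least deeply read of the 8 genes, with 118 to 218 estimated reads in wild-type libraries, and also the most variable there, with a coefficient of variation of 9.97%.

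Other phosphatases of its family were set beside it. PPM1A and PPM1B averaged 106.9 ± 0.22 and 67.1 ± 1.72 scaled CPM in the knockout, against 61.8 ± 1.58 and 44.7 ± 1.13 in wild type (SD, n = 3 each). They rose by 0.79 and 0.58 on the log2 scale, while PPM1G, with 78.7 ± 2.02 in the knockout and 159 ± 5.41 in wild type, fell by 1.01. Members of 1 enzyme family thus differed in direction.

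CCNG1 (ENSG00000113328.19, chromosome 5, 163437569 to 163446151) encodes cyclin G1, which brings a phosphatase to MDM2 and activates it. Its level was 308.9, 298.8 and 306.8 scaled CPM in knockout libraries, against 164.5, 170.8 and 170.3 in wild-type libraries. The groups lay apart, but this was the smallest rise of the 6, by 0.85 ± 0.027 (SE, limma adjusted p = 1.2e-12) or a ratio of 1.81. Its relative CCNG2, which encodes cyclin G2, had 15.5 ± 1.52 scaled CPM in the knockout and 11.3 ± 1.06 in wild type (SD, n = 3 each), a log2 change of 0.43 ± 0.088.

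RPS27L (ENSG00000185088.14, chromosome 15, 63125872 to 63158021) encodes a ribosomal protein close to RPS27 in sequence that is a p53 target and binds MDM2. It had 295.5, 291.8 and 280.5 scaled CPM in knockout libraries, against 66.0, 70.4 and 69.6 in wild-type libraries. Every knockout library was above every wild-type library, with a log2 rise of 2.07 ± 0.033 (SE, limma adjusted p = 8.7e-16) and a ratio of 4.21. RPS27, for the ordinary ribosomal protein, went the other way.

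RPS27 had 300.1, 298.3 and 278.1 scaled CPM in knockout libraries, against 556.9, 563.2 and 568.9 in wild-type libraries, and fell by 0.95 on the log2 scale (SE 0.031). The ratio of RPS27L to RPS27 was 0.985, 0.978 and 1.01 in knockout libraries and 0.118, 0.125 and 0.122 in wild-type libraries. The log2 difference of this ratio was 3.01, with an exact two-sided permutation p of 0.10, again the smallest possible. None of the 9374 stretches of 100 bases in annotated RPS27L transcripts occurred in another gene's transcripts, while 12.9% of those of RPS27 did, so the RPS27 level is the less certain.

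**Figure D2:**
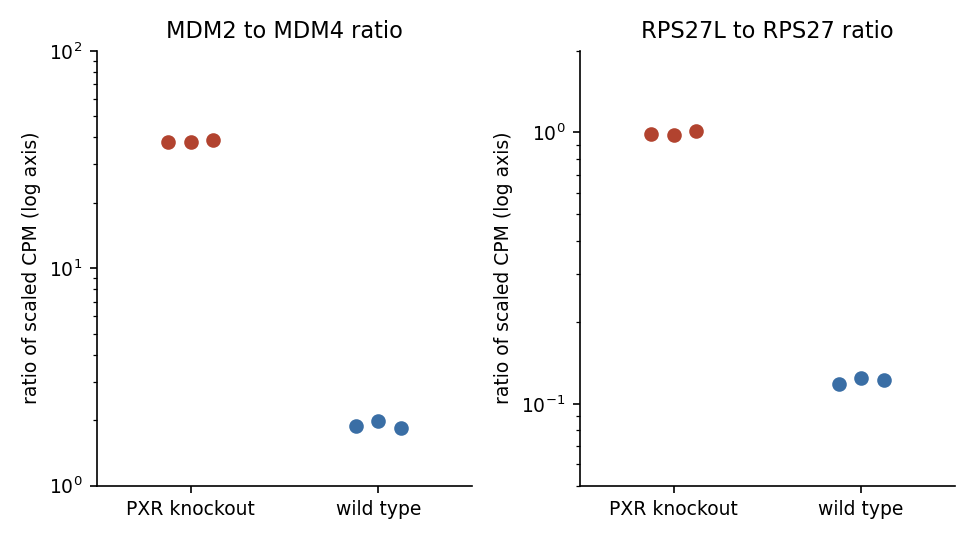
Ratio of scaled CPM within each library (vertical log axes) of MDM2 to MDM4 (left) and RPS27L to RPS27 (right), 1 point per library, knockout left of wild type in each panel. The MDM2 to MDM4 ratio is about 38 in knockout libraries and below 2 in wild-type libraries, and the RPS27L to RPS27 ratio is near 1 in knockout libraries and near 0.12 in wild-type libraries.

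The remaining genes act in stress programmes downstream of p53. ZMAT3 (ENSG00000172667.11, chromosome 3, 179017223 to 179072279), a zinc-finger RNA-binding protein and p53 target, had 300.01, 297.6 and 305.7 scaled CPM in knockout libraries, against 46.6, 49.3 and 50.1 in wild-type libraries. It was the second most changed of the 8, with a log2 rise of 2.62 ± 0.033 (SE, limma adjusted p = 8.4e-17) and a ratio of 6.19. TP53INP1 (ENSG00000164938.14, chromosome 8, 94925972 to 94949411) encodes a stress protein that promotes p53 activity and autophagy, so its loop is a positive one.

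TP53INP1 had 266.7, 257.5 and 258.4 scaled CPM in knockout libraries, against 60.1, 62.9 and 58.9 in wild-type libraries. No library crossed between the groups, and the log2 rise was 2.10 ± 0.032 (SE, limma adjusted p = 5.9e-16), a ratio of 4.30. Its relative TP53INP2 had 33.0 ± 1.84 scaled CPM in the knockout and 24.4 ± 0.16 in wild type (SD, n = 3 each), a log2 change of 0.43 ± 0.052. Over the 8 genes the coefficient of variation between replicates was 1.29% to 2.93% in the knockout and 1.99% to 9.97% in wild type. Differences between the changes of a gene and its relatives were tested only for the ratios given above.

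**Figure D3:**
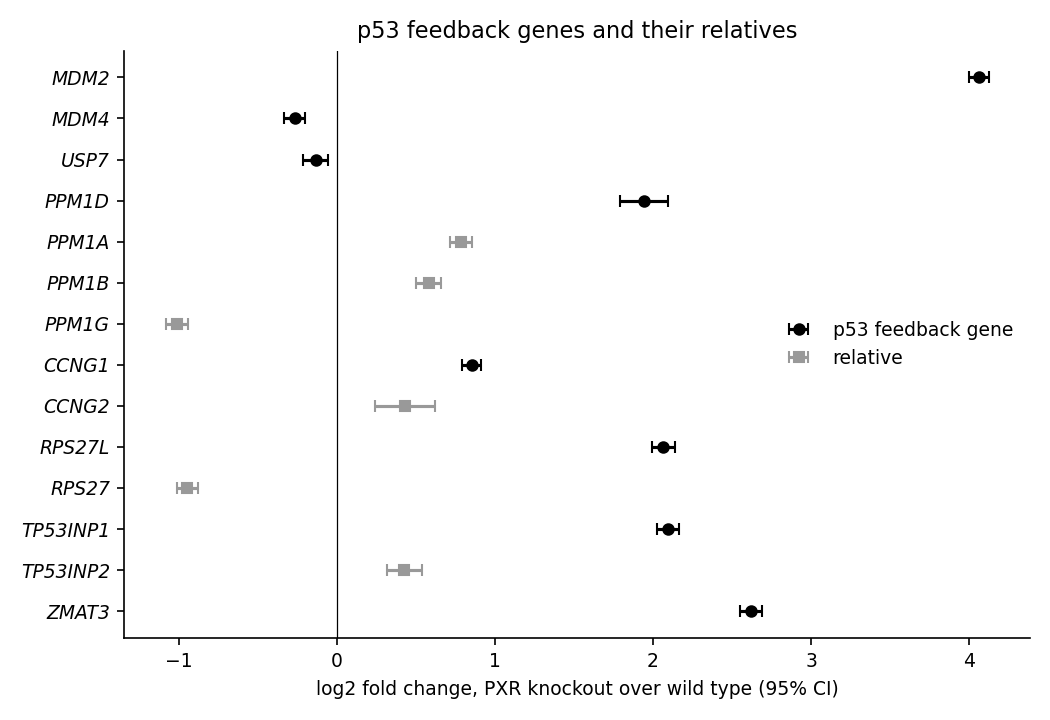
Log2 fold change, knockout over wild type (horizontal axis), with its 95% confidence interval, for the 8 genes (black circles) and the relatives set beside them (grey squares). MDM2 stands alone at 4.06, ZMAT3, TP53INP1, RPS27L and PPM1D lie between 1.95 and 2.62, and RPS27 and PPM1G lie below 0.

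Genes beside MDM2 on chromosome 12 that do not overlap it did not share the size of its rise. Chromosome 12 had a median log2 change of 0.33, so its genes were somewhat higher as a whole, and 79 tested genes that start within 10 Mb on either side had a median of 0.39. Of 14 tested genes starting within 1 Mb, 11 do not overlap MDM2, and their log2 changes ran from -0.71 to 1.15, with 6 higher and 4 lower. NUP107, a nuclear pore gene whose start lies at -121 kb from that of MDM2, had 52.7 ± 1.39 scaled CPM in the knockout and 86.4 ± 2.98 in wild type and fell by 0.71. SLC35E3, at -62.1 kb, had 42.3 ± 0.62 and 36.3 ± 1.70 scaled CPM in knockout and wild type, a log2 change of 0.22. The pseudogene KRT8P39, inside NUP107 on the same strand, had a change of -0.54 and is among the 4 lower genes. Its level was 0.924, 0.741 and 0.965 scaled CPM in knockout libraries and 1.48, 1.72 and 1.30 in wild-type libraries. KRT8P39 passed the filter only through the wild-type libraries, and the size of its log2 change depends on the added 0.5.

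Carboxypeptidase M, whose gene CPM runs on the opposite strand and overlaps the end of MDM2, had 18.9 ± 0.34 in the knockout and 32.5 ± 0.66 in wild type and fell by 0.77. Of the short genes that lie inside MDM2 on its own strand, AC025423.2, a processed pseudogene in the annotation, had 82.3 ± 4.45 scaled CPM in the knockout and 4.94 ± 0.84 in wild type, a log2 change of 3.94. All 340 of its stretches of 100 bases also occur in annotated MDM2 transcripts, so its reads and those of MDM2 cannot be told apart. AC025423.1 had 2.82 ± 0.42 in the knockout and 0, 0 and 0.135 in wild-type libraries, with 0 of 275 stretches shared. It passed the filter only through the knockout libraries, and its log2 change of 2.61 depends on the added 0.5. Of MDM2's own stretches, 2.49% occur in another gene's transcripts, and those of the other 7 genes in none.

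**Figure D4:**
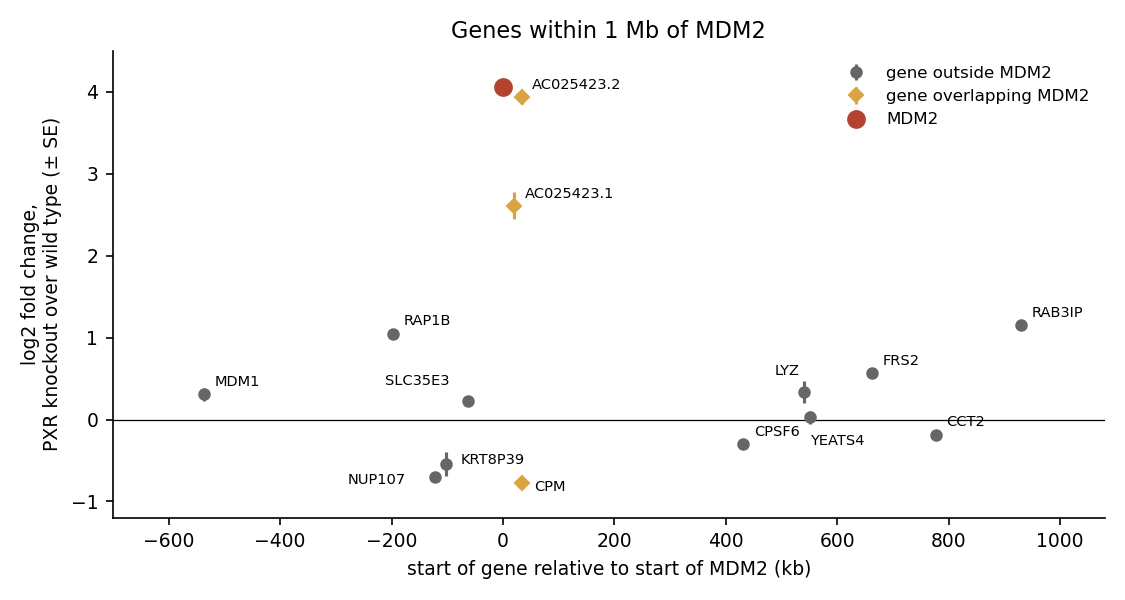
Log2 fold change ± SE, knockout over wild type (vertical axis), of tested genes by the distance of their start from that of MDM2 in kb (horizontal axis); diamonds overlap the MDM2 gene. The 11 genes outside MDM2 lie between -0.71 and 1.15, while MDM2 is at 4.06 and AC025423.2, inside it, at 3.94.

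The other 5 genes that rose were likewise above the median of their surroundings. Within 1 Mb, tested neighbours had median log2 changes of 0.077 around PPM1D (12 genes), -0.33 around CCNG1 (4 genes), -0.17 around RPS27L (13 genes), -0.25 around ZMAT3 (11 genes) and -0.18 around TP53INP1 (12 genes). PPM1D, CCNG1, RPS27L and ZMAT3 rose more than every such neighbour, the highest of which changed by 1.11, 0.19, 0.48 and 2.11 in that order. Near TP53INP1 there was 1 neighbour, CDH17, with a larger rise of 2.77. CDH17 averaged 4.70 scaled CPM in the knockout and 0.272 in wild type. It passed the filter only through the knockout libraries, and the size of its log2 change depends on the added 0.5. Genes on the opposite strand overlap RPS27L (LACTB, with a log2 change of 0.47) and TP53INP1 (NDUFAF6, 0.37); whether reads were counted by strand is not given in the sources used here.

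Other genes that p53 is known to switch on rose as well. Of 36 listed, all tested, 35 were higher and 1 was lower, with a median log2 change of 2.01 beside 0.01 over all genes, and 31 rose at least 2-fold and 18 at least 4-fold. Over all genes tested, 40.3% were higher and 39.6% lower, 12.6% rose at least 2-fold and 4.82% at least 4-fold. This list and that of the regulators below were chosen with earlier results of these data known. Their counts are therefore a description and not an independent test. SPATA18, a mitochondrial quality-control gene, had 140.5 ± 1.20 scaled CPM in the knockout and 2.78 ± 0.49 in wild type (SD, n = 3 each), a rise of 5.44 ± 0.088. CYFIP2, a regulator of actin assembly, had 51.0 ± 1.57 and 1.20 ± 0.31 in knockout and wild type, a rise of 4.93 ± 0.12. CDKN1A, which encodes the cell cycle inhibitor p21, had 664 ± 17.3 in the knockout and 35.1 ± 1.99 in wild type, a rise of 4.22 ± 0.038. These 3 were the targets with a larger log2 change than MDM2 on the scale with the added 0.5. By the ratio of means, the target TRIM22, with 17.7, also exceeded MDM2, with 16.7. The gene that fell was PMAIP1, which encodes the cell death protein NOXA, with 16.7 ± 0.67 in the knockout and 34.4 ± 2.10 in wild type, a fall by 1.02 (SE 0.059). A full p53 match lay in a promoter window of 7 of the 30 listed targets that were matched to RefSeq, beside 1.37% of all genes.

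Genes that act on p53 or on MDM2 from outside the loop were lower more often than higher. Of 30, all tested, 7 were higher, 19 were lower and 4 did not pass, beside 40.3% higher and 39.6% lower over all genes, with a median log2 change of -0.24, and none rose 2-fold. With libraries scaled to equal sums, 5 were higher and 22 lower, beside 32.9% and 47.5% of all genes. Kinases of the DNA damage response led the falls. CHEK2 had 4.93 ± 0.38 scaled CPM in the knockout and 25.7 ± 0.77 in wild type (SD, n = 3 each) and fell by 2.27. Over the tested genes of chromosome 22, which carries CHEK2, the median log2 change was -0.77. PRKDC, the catalytic subunit of DNA-dependent protein kinase, had 385 ± 9.31 and 1033 ± 11.6 in knockout and wild type and fell by 1.42, and CHEK1 had 11.5 ± 0.73 in the knockout and 27.7 ± 2.19 in wild type and fell by 1.24.

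HIPK2, a kinase that phosphorylates p53, led the rises with 570 ± 5.55 in the knockout and 288 ± 7.52 in wild type, a log2 change of 0.98. TRIM24, a ubiquitin ligase for p53, rose by 0.60 and CREBBP, an acetyltransferase of p53, by 0.36. HIPK2 and TRIM24 both lie on chromosome 7, over whose tested genes the median log2 change was 0.43. By role, 3 of 7 ubiquitin ligases were higher and 2 lower, 1 of 3 deubiquitinases was higher and 2 were lower, 1 of 8 kinases was higher and 6 were lower, and 1 of 5 genes of acetylation was higher and 3 were lower. Set against 40.3% higher and 39.6% lower over all genes, counts in groups this small show nothing particular to a role. Of 6 partners and inhibitors of MDM2, a group just as small, 5 were lower, with a median of -0.80, and 1, CDKN2A, was higher, by 0.19 (limma adjusted p = 0.014). Among the lower ones were RPL5, RPL11 and RPL23, ribosomal proteins that bind and inhibit MDM2, with log2 changes of -0.70, -1.10 and -0.90, and DAXX with -0.96. The ribosomal protein gene RPS27, which is not on this list, had a similar change of -0.95. Whether the falls were particular to partners and inhibitors of MDM2 was not tested. The regulators that did not pass were COP1 (0.046), RCHY1 (-0.0071), AKT1 (0.060) and KAT5 (-0.0012). No full p53 match lay in a window of the 23 regulators matched to RefSeq, beside 1.37% of all genes with one. At a share that low, the absence shows nothing particular to the regulators.

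**Figure D5:**
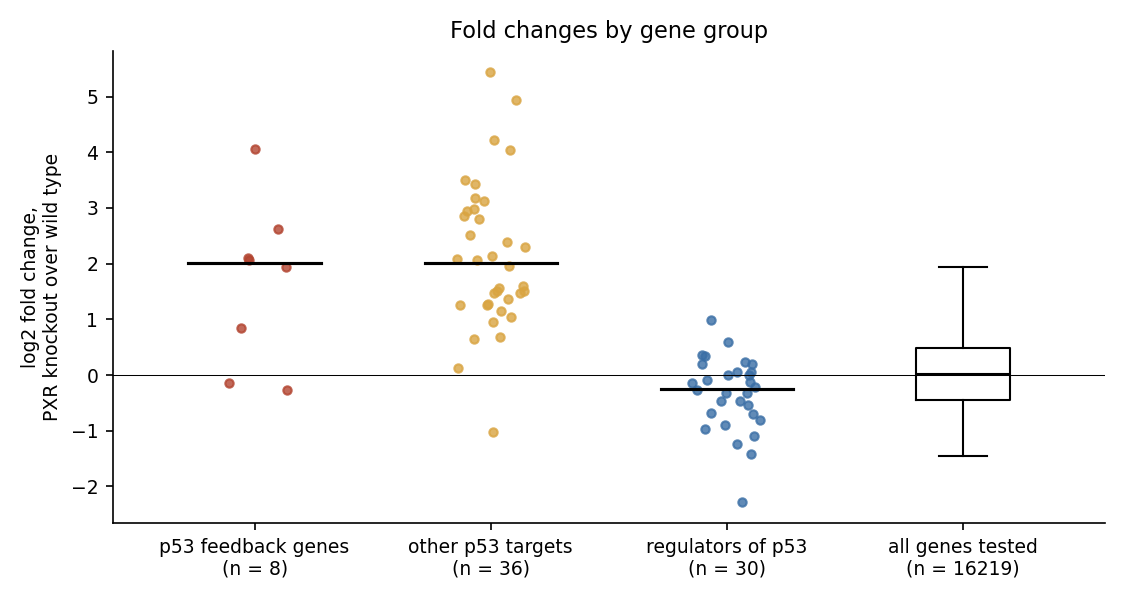
Log2 fold change, knockout over wild type (vertical axis), of each of the 8 genes, 36 other p53 targets and 30 regulators of p53 (points, with a line at the median); for all 16219 genes tested the box spans the interquartile range and the whiskers the 5th to 95th percentile. Medians are 2.01 for the 8 genes, 2.01 for the targets and -0.24 for the regulators, beside 0.01 for all genes. The gene groups were chosen with earlier results of these data known.

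Genes whose pattern over the 6 libraries was nearest to that of MDM2 were found by Euclidean distance between log2 values centred on each gene's mean. The nearest were AC119751.3 (distance 0.12), KL (0.13), TRIM22 (0.14), PLEKHG1 (0.15) and PTPRQ (0.15), with log2 rises of 4.11, 4.08, 4.04, 4.04 and 3.95. With 2 groups of 3 libraries this measure mostly compares the size of the group difference on the log2(scaled CPM + 0.5) scale. For KL, with 8.24 ± 0.51 scaled CPM in the knockout and 0, 0.048 and 0 in wild-type libraries, and for PLEKHG1, with 14.2 ± 0.38 in the knockout and 0.39 ± 0.060 in wild type, the rise on that scale is set largely by the added 0.5, and so is their nearness to MDM2. Both passed the filter only through the knockout libraries. The added 0.5 also lowered the rise of AC119751.3, an unprocessed pseudogene with 30.6 ± 1.69 in the knockout and 1.30 ± 0.073 in wild type. Its ratio of means was 23.6, against 16.7 for MDM2. TRIM22 is among the p53 targets listed above and had 106.9 ± 0.50 scaled CPM in the knockout and 6.05 ± 0.56 in wild type. PTPRQ, a receptor phosphatase gene also on chromosome 12, had 244 ± 2.39 and 15.4 ± 1.003 in knockout and wild type.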

How the data were processed

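The authors deposited 1 table of a normalized signal, linear in spite of its log2 name and called scaled CPM here, for 16673 genes. Per the submitters' processing notes, FastQC, Trim Galore, Bowtie2, edgeR and limma were used on hg38, with no versions named, and sample titles point to RSEM. Values moved in steps of 0.01 read, from which depth was estimated; only 67.9% to 76.6% of values under 20 reads were whole within 0.006 of a read, so no count test was used. Without 14 second copies of pseudoautosomal genes, 16659 genes remained, of which 16608 matched GENCODE 29 (GRCh38) by identifier. Genes above 1 scaled CPM in at least 3 of 6 libraries were tested with limma 3.58.1 (R 4.3.3), using group as the only term, a mean-variance trend and Benjamini-Hochberg adjustment. Python 3.11.15, pandas 2.3.3, numpy 2.4.6, scipy 1.17.1 and matplotlib 3.10.9 were used for the rest. The fit was also run on simulated libraries of the same means and depths (15948 genes), with 48 to 50 changed genes at each fold. Of these, 38% of 1.25-fold, 79.2% of 1.5-fold and 100% of 2-fold and 4-fold changes were recovered, with 3 false among 160 calls. The simulated spread between replicates was a fixed setting, not taken from these libraries, and far fewer genes changed than the 79.9% that passed here. These shares therefore check the code and do not give the recovery or false calls in the real data.

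The genes, lists and naming rule were chosen with earlier results of these data known. The rule took the 8 genes, their relatives, the 3 largest rises and falls of each list, the 3 nearest tested neighbours of MDM2 on each side, the 5 nearest patterns and NR1I2. RPL5, RPL11, RPL23, DAXX, CDKN2A, COP1, RCHY1, AKT1, KAT5, LACTB, NDUFAF6 and CDH17 were named after their values were seen.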

Additional observations from a re-analysis of the deposited data

How the results depend on the processing

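In 324 recomputed values, under pseudocounts of 0.1 and 1, no filter or one at 5 scaled CPM, equal sums, quantile normalization, limma without the trend, the replicate block and each library left out, no fold change of the 8 genes or their relatives turned its direction or lost its call. For USP7, the smallest change, values ran from -0.27 to -0.099 and the highest limma adjusted p was 0.038, without the trend. MDM2 ran from 3.83 (quantile normalization) to 4.09. What moved was the median of each list when libraries were scaled to equal sums, to 1.88 for the targets and -0.38 for the regulators, by about the shift of all genes; 34 targets were then higher and 1 lower, and of all genes 5342 were higher and 7705 lower. The ratio differences stayed between 4.31 and 4.36 for MDM2 to MDM4 and between 2.99 and 3.03 for RPS27L to RPS27. Same-numbered libraries did not deviate together (correlations of -0.020, -0.061 and 0.025), so the numbers were not taken as pairs; with the replicate block, 35 targets were higher and 1 lower, 7 regulators were higher and 19 lower, and the MDM2 change was 4.06. With a library left out, the filter asked for 3 of the remaining 5. Depth limits PPM1D most.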
